A study of Mus musculus with 40 samples.

Results

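What a 10-fold higher dose of GenX added to the liver transcriptome of female mice, and what was already reached at the lower dose, was examined in 9 liver libraries. The libraries came from the 4 mice numbered 351 to 354, which received 0.5 mg/kg bw/d, and the 5 mice numbered 451 to 455, which received 5 mg/kg bw/d, out of 40 libraries in the series. Mouse 355, also of the 0.5 mg/kg group, was left out because its total count lay more than 2 SD below the mean of all libraries. GenX is a short-chain perfluoroalkyl substance used in place of longer-chain relatives. All mice were wildtype Crl:CD1(ICR), were housed singly and were dosed by oral gavage for 90 days, and those of the step were female. Female controls on 0 mg/kg (5 mice, 151 to 155) and males on 0, 0.5 and 5 mg/kg (5 mice each) were used for reference. Expression was measured by TempO-Seq, in which pairs of detector oligos are ligated on the target RNA and counted by sequencing, on formalin-fixed, paraffin-embedded liver scraped from slides. The most counted probe stood for each gene, and levels are given in CPM (a probe's reads per 1e+06 reads of its library, with library sizes scaled by TMM), listed in order of mouse number.

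PPARα is a nuclear receptor of hepatocytes that binds fatty acids and related compounds and acts on DNA as a dimer with RXR. In rodent liver its ligands are known to raise the enzymes that take up, activate and oxidize fatty acids in peroxisomes and mitochondria, and the Cyp4a enzymes that hydroxylate the far end of the fatty acid chain. Hepatocytes also make most plasma proteins, including complement, coagulation factors and protease inhibitors of the serpin family, and several hepatic P450 enzymes and urinary proteins differ between the sexes in mice.

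The 2 groups were sequenced to similar depth, with 11762718 to 14417140 reads per mouse at 0.5 mg/kg and 10961837 to 12918989 at 5 mg/kg. The counts of these libraries had a peak at 32 to 42 reads, which was taken as the reads per captured molecule. On this estimate the reads stood for 326742 to 383500 molecules at 0.5 mg/kg and 306800 to 342557 at 5 mg/kg. By the same estimate 1 molecule corresponded to roughly 3 CPM, and levels of a few CPM rested on 1 or 2 molecules. Of 12412 genes tested with edgeR, 171 differed between the 2 doses at an adjusted p under 10%, which was 1.38% of the genes (78 higher at 5 mg/kg and 93 lower). At 0.5 mg/kg against control 25 genes were called (0.201%), 22 higher (0.177%) and 3 lower (0.0242%), and at 5 mg/kg against control 508 (4.09%), 260 higher (2.09%) and 248 lower (2.00%). In 124 of the 171 genes the 4 and the 5 mice did not overlap, against 403 of all genes tested (3.25%, with 1.65% higher and 1.60% lower), and 91 changed more than 2-fold. The median change of all genes tested was 0.00 on the log2 scale. Each library came from a separate mouse. The p-values rest on the spread between mice within groups, estimated over 39 libraries of all 8 groups, including those at 0.1 mg/kg, and not on the mice compared alone.

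With the shallow mouse 355 kept, 120 genes were called, of which 80 were among the 171, so that 91 calls were lost and 40 were new. Of the 74 genes named for the step 43 stayed called. The other 31, at adjusted p of 0.104 to 1, were Ucp2, Hsd3b2, Car3, Paxx, Cyp4f14, Exoc4, Pex11a, Eci1, Hadhb, Acadl, Slc25a20, Fabp1, Fads2, Cyp27a1, Slc10a1, Cyp2c29, Cyp3a41a, Cyp2c54, Gstm2, Ugt2b36, Cfi, C8b, Suclg2, Dnajb11, Hspa5, Fth1, Bhmt, Ass1, Cbs, Slc37a4 and Pklr. Among the lists below, the genes called fell from 7 to 1 in mitochondrial β-oxidation, from 6 to 2 in complement, from 7 to 2 in amino acid catabolism, from 3 to 0 in gluconeogenesis and glycolysis and from 4 to 1 among the CAR and PXR responsive P450s, and rose from 2 to 9 among acute-phase proteins. Peroxisomal β-oxidation kept its count of 5 and lipid droplet proteins theirs of 3. Fabp1 was at an adjusted p of 0.165, Bhmt of 0.221 and Cyp2c29 of 0.552 in that fit, and none of the 74 changed direction. With reads converted to molecules only 4292 genes were tested, against 12412 in reads. Of these 341 were called, and 55.7% of the calls were higher at 5 mg/kg, against 45.6% in reads.

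**Figure D1:**
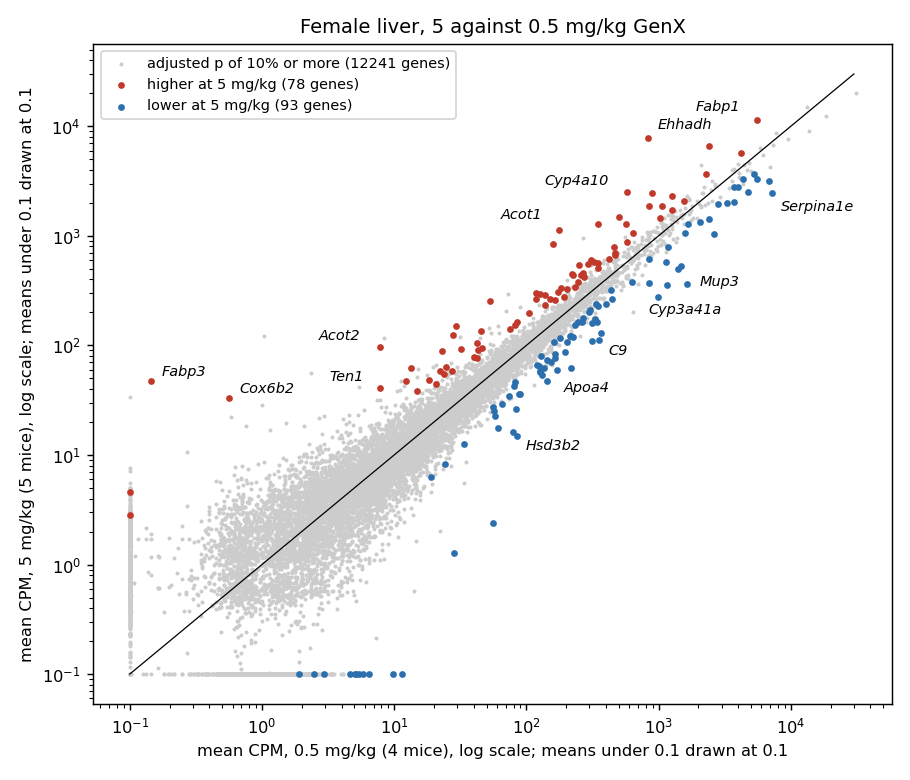
Mean CPM of each of 12412 genes at 0.5 mg/kg (4 mice, x axis) and 5 mg/kg (5 mice, y axis), both on log scales, with means under 0.1 CPM drawn at 0.1. The 78 genes called higher at 5 mg/kg (red) reach farthest from the line of equal levels at Fabp3, Cox6b2, Acot2 and Ehhadh, and the 93 called lower (blue) include Hsd3b2 and, at higher levels, Mup3 and Serpina1e.

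The gene with the smallest p in the step was Ehhadh (chr16:21761287-21787807, GRCm38), the bifunctional enzyme of peroxisomal β-oxidation. Its level was 779, 889, 1062 and 615 CPM in the 4 mice at 0.5 mg/kg and 7670.3, 8978, 5792, 7389.5 and 9511 CPM in the 5 mice at 5 mg/kg. Every mouse at the higher dose lay far above every mouse at the lower, and the fitted difference was 9.41-fold (log2 3.23 ± 0.17 SE, adjusted p = 1.11e-17). Acot1 (chr12:84009490-84018371), a cytosolic thioesterase that releases free fatty acids from acyl-CoA, rose from 186, 121, 248 and 148 CPM to 1225, 1191, 741, 1038 and 1448 CPM. This was 6.43-fold (log2 2.68 ± 0.26, adjusted p = 4.52e-09). Its mitochondrial relative Acot2 stood at 4.10, 6.59, 20.7 and 0 CPM at 0.5 mg/kg, which is a handful of molecules at most, and at 133, 164, 28.05, 63.6 and 94.6 CPM at 5 mg/kg (log2 3.62 ± 0.88, adjusted p = 0.0674). Acot1 and Acot2 are close paralogs, and the probe sequences were not used here, so counts shared between the pair cannot be separated. The call of Acot2 was lost without any 1 of mice 351, 352, 354, 451 and 452, although its log2 change ranged over 3.21 to 4.75.

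Fabp3, the heart-type fatty acid binding protein, was close to absent below 5 mg/kg. It had no read in any of the 5 controls, 7 reads in a single mouse at 0.5 mg/kg (mouse 353), and 118 to 1207 reads in the mice at 5 mg/kg. On the CPM scale the 5 mice stood at 25.1, 86.1, 9.40, 59.5 and 54.3, and the groups did not overlap (adjusted p = 1.66e-04). The 7 reads of mouse 353 are fewer than the 33 estimated per captured molecule of that library, so no fold change is given. Cox6b2, a testis-enriched subunit isoform of cytochrome c oxidase, had at most 26 reads at 0.5 mg/kg and reached 81.6, 25.8, 7.17, 29.3 and 21.3 CPM at 5 mg/kg (adjusted p = 0.0534). Its call was lost on leaving out mouse 351, 352, 353 or 451, and all reads at 0.5 mg/kg came from mouse 354, so no fold change is given.

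The other genes chosen for a large rise without overlap spanned a wide range of levels. Cyp4a31 and Cyp4a10 ω-hydroxylate fatty acids, and all 5 mice at 5 mg/kg lay above all 4 at 0.5 mg/kg in both. Cyp4a31 went from 106, 145, 204 and 180.4 to 764, 721, 836, 883 and 972 CPM, or 5.26-fold (adjusted p = 1.09e-08), and Cyp4a10 from 454, 695, 644 and 519 to 2731, 2096, 2601, 2424 and 2756 CPM, or 4.36-fold (adjusted p = 3.92e-04). Ces2c, a carboxylesterase that hydrolyses acylglycerols and drug esters, stood at 38.5, 30.2, 24.2 and 18.8 CPM and rose to 148, 154, 123, 51.1 and 148 CPM (4.47-fold, adjusted p = 3.91e-04). Ucp2, an inner mitochondrial membrane transporter, rose from 16.3, 13.04, 7.24 and 12.6 to 39.5, 90.3, 31.3, 28.7 and 45.3 CPM (3.82-fold, adjusted p = 0.00612), with mouse 452 well above the other 4. Neither gene was higher at 0.5 mg/kg than in controls, where Ces2c ranged over 14.2 to 65.8 CPM and Ucp2 over 9.90 to 35.2 CPM. Ten1, part of the telomere-capping CST complex, rose from a range of 2.59 to 12.2 to a range of 23.4 to 53.6 CPM (adjusted p = 0.00245). Acaa1b, a peroxisomal thiolase, rose from a range of 5.53 to 20 to a range of 42.5 to 97.4 CPM (adjusted p = 0.038), and Adam11, a disintegrin family membrane protein, from a range of 8.13 to 29.5 to a range of 51.1 to 129 CPM (adjusted p = 0.0384). Acaa1b was no longer called without mouse 352, 354 or 455 (log2 1.95 to 2.46), and Adam11 without mouse 354 or 451 (log2 1.69 to 2.11).

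**Figure D2:**
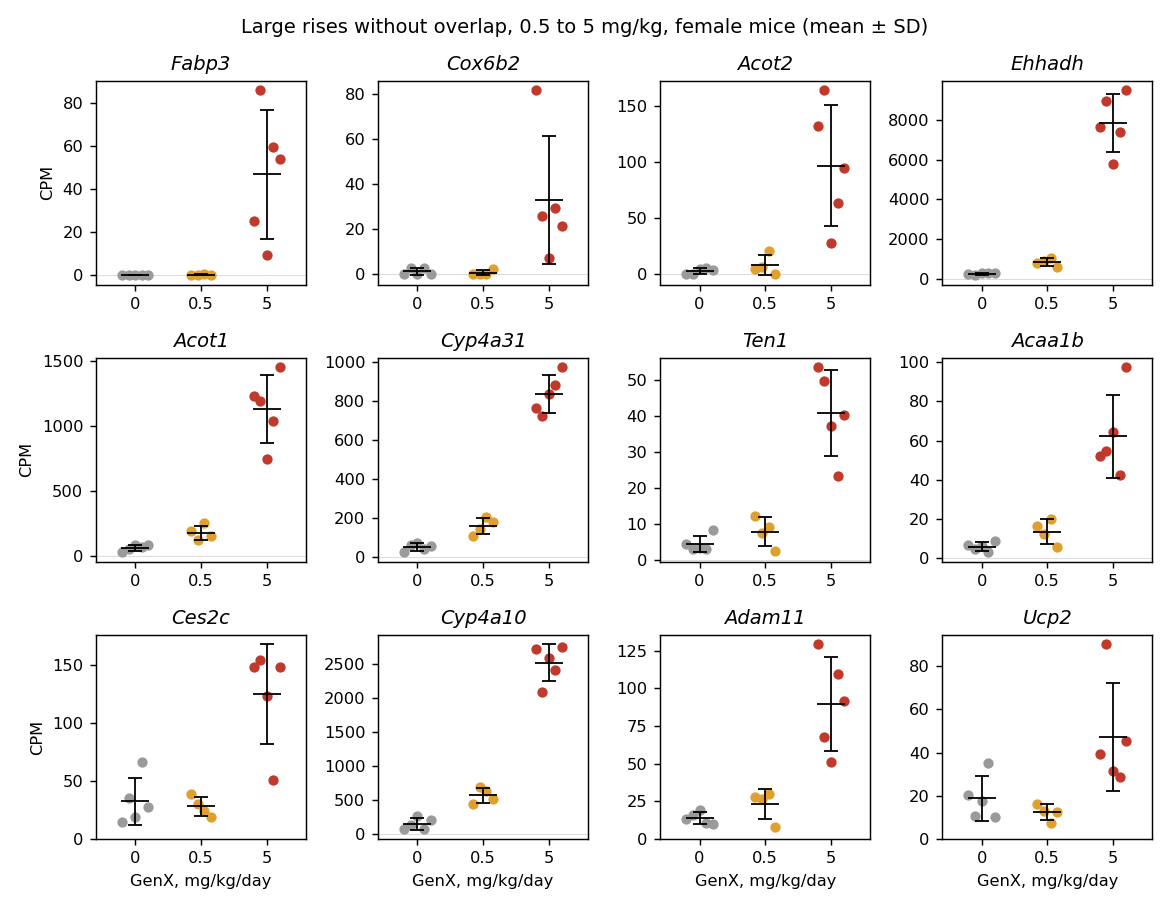
CPM in each female mouse (points) at 0, 0.5 and 5 mg/kg/day for 12 genes called higher in the dose step, those with the largest log2 change among genes of at least 20 mean CPM at 5 mg/kg whose mice of the 2 doses did not overlap, with mean and SD bars (5, 4 and 5 mice). The gap between the 2 doses was thus a condition of the choice. In Fabp3 and Cox6b2 the mice at 0 and 0.5 mg/kg lie at or near 0.

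Genes of fatty acid oxidation were called higher in both organelles that carry it out. Of 16 tested genes of mitochondrial β-oxidation, 7 were called higher and none lower, all 16 had a change above 0, and the median was 0.53 on the log2 scale, beside 0.628% called higher and a median of 0.00 over all genes tested. Eci1, the enoyl-CoA isomerase of the mitochondrion, was at 137, 97.8, 164 and 77.1 CPM and then 336, 259, 271, 314 and 310.3 CPM (log2 1.32 ± 0.19, adjusted p = 2.60e-05). Hadhb, the thiolase subunit of the trifunctional protein, went from 243, 330.5, 267 and 338 to 622, 492, 477, 514 and 641 CPM (log2 0.90 ± 0.14, adjusted p = 5.81e-05). The groups did not overlap in either gene. The long-chain dehydrogenase Acadl rose from a range of 253 to 369.7 to a range of 534 to 682 CPM (adjusted p = 8.42e-05) and the medium-chain dehydrogenase Acadm from a range of 1004 to 1197 to a range of 1647 to 2019 CPM (adjusted p = 4.08e-04). In the peroxisomal pathway 5 of 19 tested genes were called higher and none lower (median log2 0.58). Acaa1a, the main peroxisomal thiolase, rose from 711, 1038, 1226 and 581 to 3798, 1918, 2083, 2109 and 2358 CPM (log2 1.46 ± 0.24, adjusted p = 2.09e-04), and Eci2, a peroxisomal enoyl-CoA isomerase, from 213, 199, 194 and 273 to 381, 415, 424, 499.7 and 510.0 CPM (log2 1.02 ± 0.18, adjusted p = 3.91e-04). Probes for Acaa1a and Acaa1b may share reads, since the genes are nearly identical.

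Among genes of the peroxisome itself, 1 of 24 tested peroxins and peroxisomal transporters was called higher (4.17%) and none lower. The share called higher over all genes tested was 0.628%, and the median of the list was -0.05. The called gene, Pex11a, which promotes peroxisome division, stood at 24.5, 56.8, 65.4 and 22.05 CPM at 0.5 mg/kg and 108, 117, 62.5, 127 and 112 CPM at 5 mg/kg, so that mouse 453 fell within the range of the lower dose (adjusted p = 0.076, and not called without 1 of 6 mice, 351, 354, 451, 452, 454 and 455, with log2 1.11 to 1.61). Catalase (Cat), the abundant peroxisomal peroxidase, was 2007 ± 307 CPM (SD, n = 4) and 1958 ± 135 CPM (SD, n = 5), with a 95% interval of the log2 change of -0.26 to 0.18. Pxmp2, a peroxisomal membrane channel, had an interval of -0.37 to 0.27. For both genes a change of 2-fold lies outside the interval.

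Genes that bind, activate and store fatty acids were also called higher. In fatty acid binding and uptake, 5 of 19 tested genes were called higher and none lower (median log2 0.62), beside 0.628% of all genes called higher. Fabp1, the liver fatty acid binding protein, was at 4698, 6108, 6814 and 4719 CPM and then 10144, 11604, 9879, 11570.0 and 13860.0 CPM, the highest level of any gene called higher (log2 1.03 ± 0.15, adjusted p = 2.60e-05). Dbi, the acyl-CoA binding protein, rose from a range of 401 to 539.6 to a range of 706 to 913 CPM (adjusted p = 2.02e-04), and Acsl1, which couples long-chain fatty acids to CoA, from a range of 1996 to 2656 to a range of 3195 to 4107 CPM (adjusted p = 2.42e-04). Among lipid droplet proteins and lipases 3 of 17 were called higher. Hsd17b11, a droplet-bound dehydrogenase, rose from 350.1, 360.0, 413 and 262 to 1106, 1324, 1095, 1341 and 1484 CPM (log2 1.88 ± 0.17, adjusted p = 4.80e-10). Plin2, which coats lipid droplets, went from 613, 878, 1008 and 864 to 1763, 2279, 1234, 2242 and 1901 CPM (log2 1.16 ± 0.19, adjusted p = 1.76e-04), and Mgll, monoacylglycerol lipase, from a range of 25.8 to 39.6 to a range of 74.8 to 127 CPM (adjusted p = 0.00283). None of these genes had mice of the 2 groups overlapping.

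Smaller groups of the same metabolism gave fewer calls in number, beside 0.628% of all genes tested called higher. Of 9 thioesterases 2 were called, Acot1 and Acot2 (median log2 1.47). In the carnitine shuttle, which carries fatty acyl groups into mitochondria, 1 of 6 genes was called, the transporter Slc25a20, which rose from 4.69, 25.3, 26.5 and 16.9 to 56.7, 62.7, 29.4, 41.4 and 50.3 CPM (adjusted p = 0.0976, a call kept only without mouse 353 or without mouse 453). Cpt2, the inner-membrane transferase, had 52.7, 20.5, 59.3 and 26.2 CPM and 71.4, 74.5, 65.2, 51.7 and 59.3 CPM (adjusted p = 0.35), and Cpt1b, the muscle-type outer-membrane enzyme, 2.05, 0, 0 and 4.06 CPM and 20.2, 28.2, 8.53, 20.5 and 20.8 CPM (adjusted p = 0.36). No gene of 9 in ketogenesis and its regulators was called at adjusted p under 10%. Their median log2 change was 0.36. Acat1, the acetoacetyl-CoA thiolase, had an interval of 0.01 to 0.64 and Bdh1, the 3-hydroxybutyrate dehydrogenase, of -0.03 to 0.75. In lipogenesis 2 of 20 were called higher, the desaturase Fads2 (log2 0.72 ± 0.19, adjusted p = 0.054) and the malic enzyme Me1 (log2 1.15 ± 0.32, adjusted p = 0.0849). Each lost its call in leave-one-out fits, Fads2 without mouse 351, 352, 354, 453 or 455 (log2 0.64 to 0.85) and Me1 without mouse 351, 352, 354, 451, 452 or 455 (log2 0.94 to 1.40). Cholesterol synthesis gave no call in 24 genes, with 18 below 0 and a median of -0.22 in the step, beside a median of 0.53 at 0.5 mg/kg against control, where none was called either. Fdft1, squalene synthase, stood at 326, 402, 422 and 461 CPM and 391.98, 545, 498, 234 and 223 CPM, where mice 454 and 455 were below the other 3. Sc5d, a late desaturase of the pathway, had the same 2 mice at the low end of 1122, 1288, 813, 633 and 619 CPM.

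Genes of energy metabolism and protein turnover had mostly small changes above 0. The share called higher was 4.05% in oxidative phosphorylation and 11.76% in the tricarboxylic acid cycle, beside 0.628% of all genes tested. Of 74 tested genes of oxidative phosphorylation 65 had a change above 0 (median log2 0.24), against 6006 of 12412 over all genes, and 3 were called. These were Cox7c, a cytochrome c oxidase subunit (log2 0.52 ± 0.11, adjusted p = 0.00699), Ndufab1, a carrier subunit of complex I (log2 0.74 ± 0.19, adjusted p = 0.0359), and Atp5k, of ATP synthase (log2 0.55 ± 0.15, adjusted p = 0.0647). Only Cox7c kept its call in every leave-one-out fit, since Ndufab1 lost it without mouse 351, 352, 451 or 455 (log2 0.66 to 0.88) and Atp5k without mouse 351, 352, 354, 451, 454 or 455 (log2 0.47 to 0.60). In the tricarboxylic acid cycle 2 of 17 were called higher, the dehydrogenase subunit Dlst and the succinate-CoA ligase subunit Suclg2 (log2 0.53 ± 0.12 and 0.56 ± 0.14). Dlst was not called without mouse 352 (log2 0.48 to 0.58 over all such fits), nor Suclg2 without mouse 352 or 354 (log2 0.51 to 0.63). None of 42 proteasome genes or 71 ribosomal protein genes was called, with medians of 0.26 and 0.18. Among their well counted members were Psma3 (log2 0.34 ± 0.13) and Psmb3 (0.30 ± 0.14) in the proteasome and Rpl4 (0.18 ± 0.11) and Rps9 (0.21 ± 0.12) in the ribosome. CPM is a share of each library, so a small common shift of this kind is relative to all other genes.

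Cell division and stress lists gave at most 2 calls each, beside 1.38% of all genes tested called in either direction. The share called was 3.85% among p53 targets and apoptosis genes, 10.53% in the NRF2 list and 8.0% in the unfolded protein list. DNA replication and mitosis had no call in 31 genes, and although the median was 1.13, the list was so lowly counted that even its most counted members stood near 20 CPM. Pcna, the replication clamp, had 23.1, 22.3, 22.96 and 14.96 CPM and 21.7, 21.5, 27.1, 23.3 and 21.8 CPM, and Rrm1, a ribonucleotide reductase subunit, 17.2, 27.8, 18.5 and 27.9 CPM and 30.6, 45.2, 13.9, 9.65 and 26.1 CPM, with overlapping groups in both. Of 26 p53 targets and apoptosis genes 1 was called, Ccng1, at 23.99, 18.2, 33 and 8.21 CPM and 40.8, 45.6, 32.5, 51.3 and 53.8 CPM (adjusted p = 0.0876), where mouse 353 stood slightly above mouse 453. Its call was kept only without mouse 353 or without mouse 453. Mcl1, an anti-apoptotic BCL2 relative, had an interval of -0.63 to 0.15 and Trp53inp1 of -0.30 to 0.95. In the NRF2 list 2 of 19 were called higher, the microsomal epoxide hydrolase Ephx1 (log2 0.97 ± 0.23, adjusted p = 0.027) and the ferritin heavy chain Fth1 (log2 0.43 ± 0.11, adjusted p = 0.0295). Ephx1 was not called without mouse 351, 352 or 453 (log2 0.80 to 1.18), nor Fth1 without mouse 351 (log2 0.37 to 0.49). In the unfolded protein list 18 of 25 genes were below 0 (median log2 -0.35), and 2 were called lower. These were the endoplasmic reticulum chaperones Hspa5, at 4406, 3966, 5835 and 4806 CPM and 2071, 4039, 1378, 1857 and 3318 CPM, and Dnajb11. In both genes mouse 452 lay within the range of the lower dose (adjusted p = 0.0728 and 0.0525). Hspa5 was not called without 1 of mice 351, 353, 354, 451, 453 and 454 (log2 -1.14 to -0.75), nor Dnajb11 without 1 of mice 353, 354, 451, 453 and 454 (log2 -0.89 to -0.62).

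**Figure D3:**
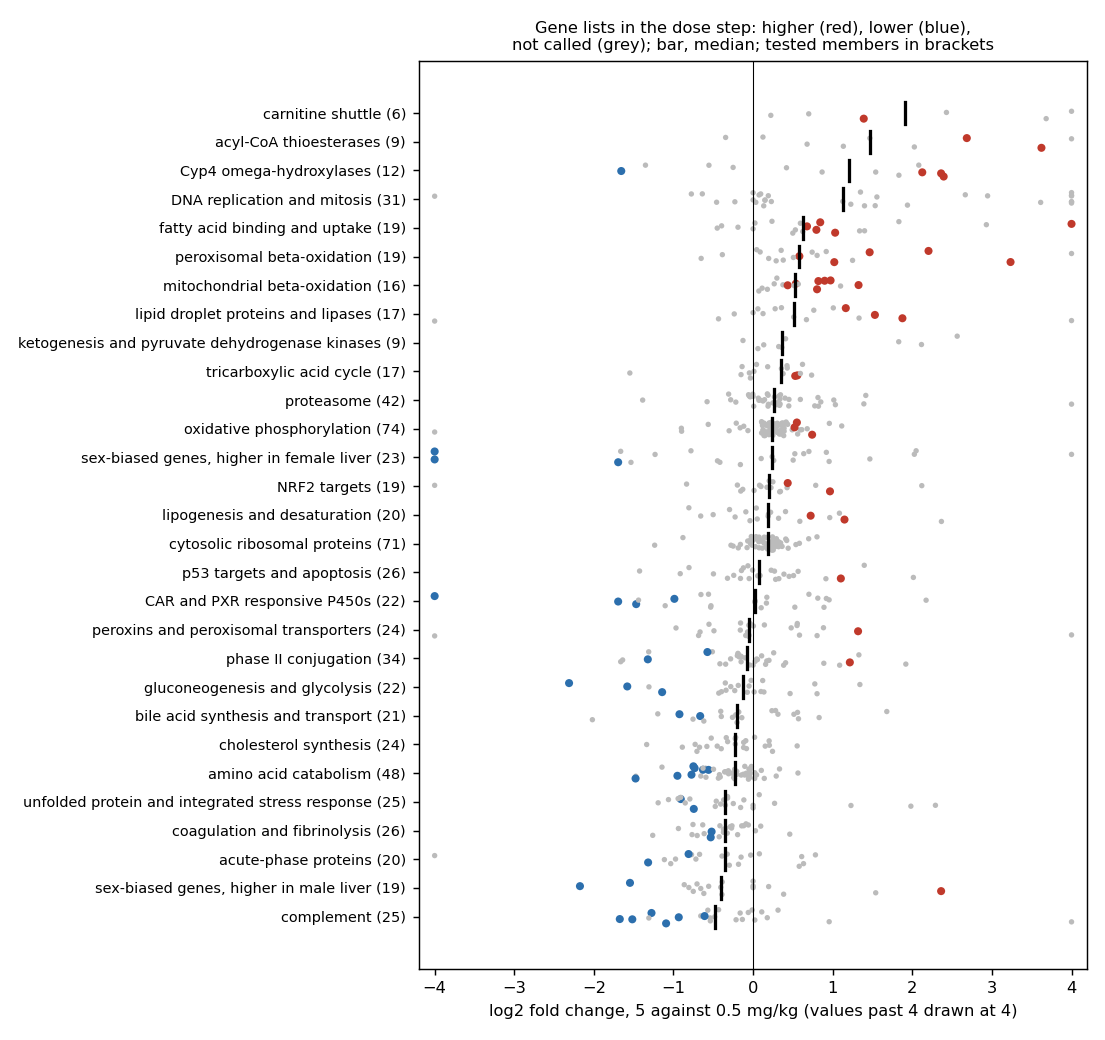
Log2 change from 0.5 to 5 mg/kg (x axis, values past 4 in either direction drawn at 4 or -4) of every tested member of 29 gene lists (rows, number tested in brackets), coloured red where called higher and blue where called lower, with the median as a bar. Called genes of fatty acid metabolism lie to the right, as in mitochondrial β-oxidation with 7 of 16, and those of complement, with 6 of 25, and amino acid catabolism, with 7 of 48, lie to the left.

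Serpina1e (chr12:103946931-103958975), an α1-antitrypsin, stood at 7068, 6526, 6580.3 and 8662 CPM at 0.5 mg/kg and 2576, 2440.2, 2749.7, 2029 and 2547 CPM at 5 mg/kg, a fall of 2.92-fold with the smallest p of any falling gene (log2 -1.55 ± 0.14, adjusted p = 1.06e-10). Controls ranged over 7097 to 10977 CPM, and the difference between controls and 0.5 mg/kg had an interval of -0.66 to -0.09 on the log2 scale and was not called. Serpina1d fell from 179, 102, 137 and 155 to 58.2, 71.3, 50.1, 31.2 and 26.8 CPM and Serpina1a from 324, 278, 293 and 355 to 120.3, 131, 106, 74.1 and 117 CPM (3.02-fold and 2.85-fold lower). These α1-antitrypsin genes are near-identical copies side by side on chromosome 12, so how their reads divide is uncertain, and all 3 were called lower. Serpina3k, a related inhibitor and acute-phase protein, fell from 3157, 1887, 2582 and 2812 to 959.7, 683, 1260.0, 1334 and 994 CPM (log2 -1.32 ± 0.18, adjusted p = 1.99e-06). In the acute-phase list 2 of 20 were called lower and none higher (median log2 -0.36), against 0.749% of all genes called lower. Itih4, an inter-α-inhibitor heavy chain, was the other, at 196 to 230.5 and then 101 to 136 CPM (adjusted p = 0.0171).

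Of 25 tested genes of complement 6 were called lower and none higher, 19 were below 0, and the median was -0.48. C1s1, the serine protease of the first component, was tightly grouped at 364, 393, 355 and 361 CPM at 0.5 mg/kg and dropped to 184, 68.8, 85.9, 159 and 146 CPM (log2 -1.52 ± 0.24, adjusted p = 8.04e-05). Cfi, the protease that cleaves C3b and C4b, went from 225, 215, 229.7 and 239 to 118, 129.96, 124, 122 and 101 CPM (log2 -0.93 ± 0.15, adjusted p = 9.44e-05). For both genes the 0.5 mg/kg mice were level with controls, with intervals of the log2 change of -0.59 to 0.39 and -0.29 to 0.33. C9 of the membrane attack complex stood at 199, 184, 243 and 792 CPM, where mouse 354 was far above the other 3, and at 107, 144, 119.6, 84.3 and 100.1 CPM at 5 mg/kg (log2 -1.67 ± 0.29, adjusted p = 2.35e-04). Without mouse 354 the call of C9 held, at a log2 change of -0.91. C8b, of the same complex, had 36.9, 51.3, 164 and 98.6 and 23.6, 41.7, 43.7, 21.1 and 51.2 CPM (adjusted p = 0.0116), with mouse 353 so high that the call was lost without it (log2 -1.53 to -0.78). With mouse 355 kept, Cfi and C8b were not called (adjusted p = 0.294 and 0.206). In coagulation 2 of 26 were called lower, the fibrinogen chains Fga and Fgg (log2 -0.52 ± 0.14 and -0.53 ± 0.14, adjusted p = 0.0625 and 0.0424), and 23 were below 0 (median -0.36). Mouse 452 lay within the range of the lower dose for both chains. Fga was not called without mouse 351, 354, 451, 453 or 455 (log2 -0.65 to -0.42), nor Fgg without mouse 351, 354, 451 or 453 (log2 -0.63 to -0.43).

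Hepatocyte markers were examined beside these falls. The summed level of 9 hepatocyte markers found in the table was 15609 to 17828 CPM at 0.5 mg/kg and 11733 to 13548 CPM at 5 mg/kg, and was 15368 to 18207 CPM in controls. 2 of 9 tested markers, Serpina1a and Ahsg, were called lower, beside 0.749% of all genes tested. All 9 were below 0, and the median was -0.37. None of the markers was at 0, and 2 of the list's 11 symbols were not found in the table. In a piece of whole liver, fewer cells of a type and less of its RNA per cell cannot be told apart. Markers of Kupffer cells summed to 176 to 442 CPM and 213 to 527 CPM at the 2 doses, of stellate cells to 109 to 155 and 138 to 187 CPM, and of endothelial cells to 354 to 528 and 471 to 533 CPM. No tested gene of these 3 lists, or of the cholangiocyte and lymphocyte lists, was called in the step. Defining markers at 0 in all mice of both doses were Timd4 for Kupffer cells, Epcam, Sox9, Cftr and Sctr for cholangiocytes and Cd4, Cd8a and Cd79a for lymphocytes. Adipocyte markers summed to at most 3.48 CPM, with Lep, Cfd and Cidea at 0 in both groups. Cholangiocyte markers summed to 45.7 to 62.4 CPM and 33.4 to 52.0 CPM, and lymphocyte markers to 15.3 to 36.1 and 11.8 to 25.7 CPM. The part of cell composition in the results was not tested.

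A minority of the enzymes of amino acid and glucose metabolism were called lower, beside 0.749% of all genes tested. Of 48 tested genes of amino acid catabolism 7 were called lower (14.58%) and none higher, with 40 below 0 (median log2 -0.23). Bhmt, which remethylates homocysteine from betaine, was 1821, 1866, 977 and 923 CPM at 0.5 mg/kg and 755, 467, 382, 639.6 and 266 CPM at 5 mg/kg (log2 -1.48 ± 0.25, adjusted p = 1.60e-04). The groups did not overlap. Ass1 and Asl, consecutive enzymes of the urea cycle, fell from 6132, 6665, 4889.8 and 4698 to 3603, 2833, 3318, 3615 and 2998 CPM and from 633, 619, 636 and 635 to 413, 358, 432, 377 and 296 CPM (log2 -0.77 ± 0.15 and -0.75 ± 0.16, adjusted p = 0.0014 and 0.00588). Cbs, of transsulfuration, fell from a range of 399.99 to 471 to a range of 192 to 356 CPM (adjusted p = 0.00722). In gluconeogenesis and glycolysis 3 of 22 were called lower (13.64%), among them Slc37a4 and Pklr. Slc37a4, the glucose-6-phosphate transporter, fell from 159.6, 122, 96.7 and 129.85 to 49.7, 47.8, 81.3, 38.6 and 70.3 CPM (adjusted p = 0.0011), and Pklr, liver pyruvate kinase, from a range of 10.5 to 25.1 to a range of 1.61 to 10.4 CPM (adjusted p = 0.0534, not called without mouse 351, 352, 354, 452, 454 or 455, log2 -1.83 to -1.34). Of the whole list 8 were above 0 (median log2 -0.13), and with mouse 355 kept none of it was called.

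Calls also came from single genes of other pathways. Hsd3b2, a 3β-hydroxysteroid dehydrogenase, had 50.03, 37.8, 78.02 and 173 CPM and 5.72, 8.20, 26.5, 11.7 and 22.9 CPM (5.66-fold lower, adjusted p = 3.91e-04), with mouse 354 the highest. Without mouse 354 its log2 change was -1.88 and still called, and with mouse 355 kept it was not called (adjusted p = 0.12). Apoa4, an apolipoprotein of triglyceride-rich particles, was 180.2, 186, 213 and 287 CPM and 68.7, 39.9, 87.2, 24.3 and 88.9 CPM (3.50-fold lower, adjusted p = 9.91e-04). Apoa4 was also lower at 0.5 mg/kg than in controls, which had 404, 868, 578, 450.2 and 536 CPM, with no overlap but without a call (adjusted p = 0.11). Car3, carbonic anhydrase 3, stood at 1064, 1112, 1355 and 436 CPM and 184, 230.0, 337, 283 and 345 CPM (3.60-fold lower, adjusted p = 4.54e-04). Paxx, a DNA end-joining factor, fell from a range of 36.7 to 98.8 to a range of 11.5 to 22.8 CPM (adjusted p = 0.00362), and Cyp4f14, a P450 that hydroxylates leukotrienes and long-chain acids, from a range of 62.98 to 103 to a range of 13.5 to 43.7 CPM (adjusted p = 1.73e-04). Exoc4, an exocyst subunit, had 23.7, 24.3, 30.5 and 19.1 CPM and 8.05, 9.42, 7.57, 7.39 and 9.14 CPM (adjusted p = 0.0826), and was not called in any of the 9 leave-one-out fits, where its log2 change was -1.66 to -1.43.

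**Figure D4:**
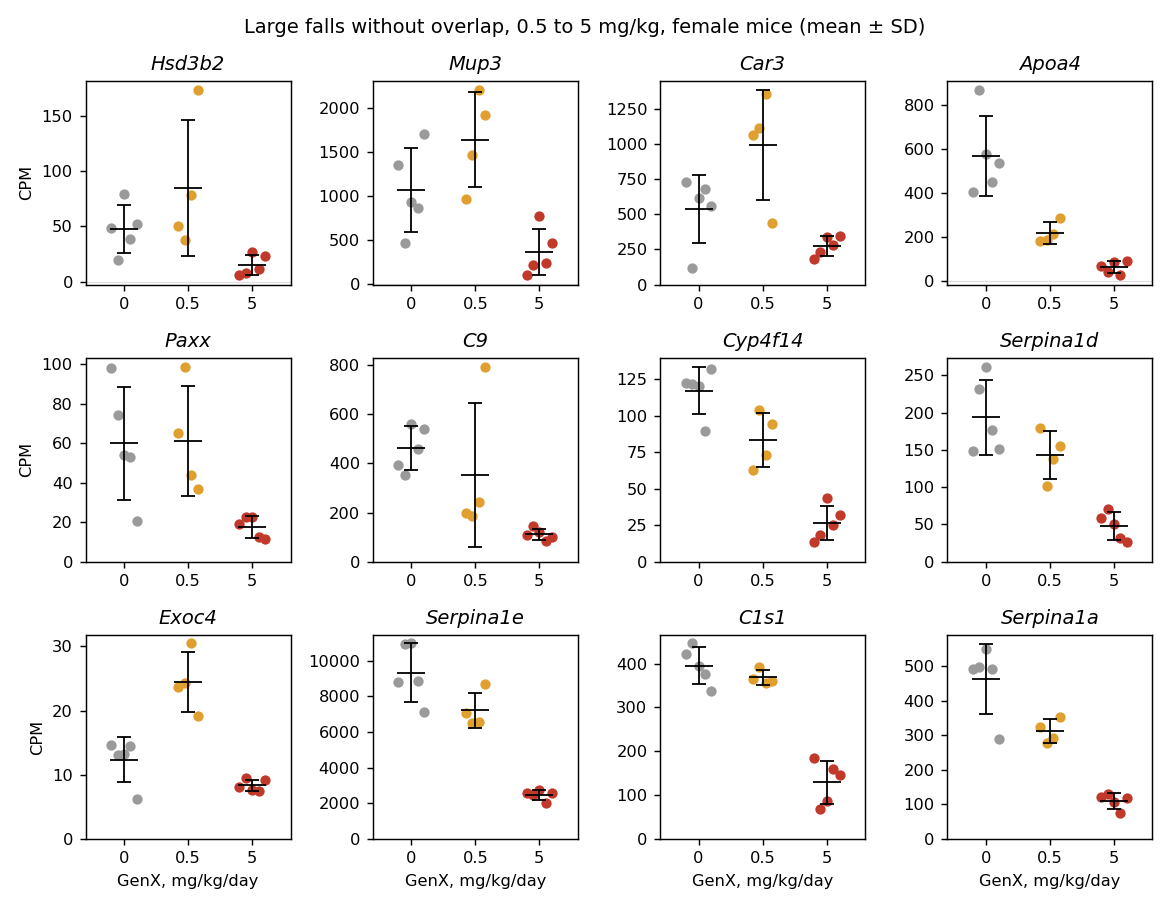
CPM in each female mouse (points) at 0, 0.5 and 5 mg/kg/day for 12 genes called lower in the dose step, those with the largest log2 change among genes of at least 20 mean CPM at 0.5 mg/kg whose mice of the 2 doses did not overlap, with mean and SD bars (5, 4 and 5 mice). The gap between the 2 doses was again a condition of the choice. In C9 a single mouse at 0.5 mg/kg (354, 792 CPM) stands above the rest of its group.

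Some of these genes had a higher mean at 0.5 mg/kg than in controls, so that the step was larger than the net change. A choice by the step favours such genes, since the same 0.5 mg/kg mice enter both. Mup3, a major urinary protein with close paralogs that may share its reads, had 1360.1, 463, 939, 865 and 1709 CPM in controls, 971, 1473, 2207 and 1921 CPM at 0.5 mg/kg and 108, 220.2, 774, 245 and 473 CPM at 5 mg/kg. Its log2 change was -2.17 ± 0.33 in the step (adjusted p = 3.09e-05) and -1.55 ± 0.31 at 5 mg/kg against control. The difference of Mup3 between 0.5 mg/kg and control was not called (adjusted p = 0.49), and the same held for Car3 (adjusted p = 0.48). Of the 171 genes of the step, 155 were also called at 5 mg/kg against control and 16 were not, among them Hspa5, Exoc4, Ugt2b36, a glucuronosyltransferase, and Ccng1. Ugt2b36 stood at 284, 155, 213, 239 and 218 CPM in controls, 220.1, 366, 355 and 253 CPM at 0.5 mg/kg and 222, 163, 205, 207 and 205 CPM at 5 mg/kg, and its call in the step was lost without mouse 352, 353, 452, 453, 454 or 455 (log2 -0.69 to -0.46).

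Calls among drug-metabolizing enzymes were mostly lower, with Gstt2 the only gene called higher in the P450 and conjugation lists. Of 22 P450 genes responsive to the xenobiotic receptors CAR and PXR, 4 were called lower (18.18%) and none higher. Over all genes tested 0.749% were called lower, and the median of the P450 list was 0.02 on the log2 scale. Cyp2c29 fell from 941, 1173, 1436 and 1028 to 686, 437, 694, 477 and 590.3 CPM (log2 -0.99 ± 0.18, adjusted p = 3.12e-04), and Cyp2c54 from 1672, 1589, 1378 and 1281 to 553, 135, 1122, 319 and 545 CPM (adjusted p = 0.0253, not called without mouse 454, log2 -1.93 to -1.22). Both metabolize drugs and fatty acids, and the Cyp2c and Cyp3a genes have close paralogs that may share reads. Cyp3a44, a female-predominant P450, had 29.5, 29.1, 22.3, 44.4 and 57.03 CPM in controls and 5.15, 20.9, 3.37 and 9.94 CPM at 0.5 mg/kg, and no read in any of the 5 mice at 5 mg/kg (adjusted p = 4.26e-05). Cyp3a41a, also female-predominant, had 2950.3, 2714, 2810.5, 3938 and 3866 CPM in controls, 1441, 1969.6, 395 and 812 CPM at 0.5 mg/kg and 1071, 210.5, 142, 171 and 189 CPM at 5 mg/kg, where mouse 451 lay among the lower dose (adjusted p = 0.00602, not called without mouse 352, log2 -2.70 to -1.31, the larger fall without mouse 451). In phase II conjugation 1 of 34 was called higher and 2 lower. The glutathione transferase Gstt2 rose from 109.6, 195, 106 and 101 to 299.5, 277, 282, 249 and 375 CPM (adjusted p = 3.34e-04), while Gstm2 fell from 111, 126, 43.7 and 78.6 to 34.4, 40.4, 45.5, 37.7 and 21.8 CPM (adjusted p = 0.038, not called without mouse 351, 352 or 455, log2 -1.55 to -1.12). Bile acid synthesis and transport had 2 of 21 called lower (median log2 -0.20), the sterol 27-hydroxylase Cyp27a1, from a range of 68.5 to 93.1 to a range of 23.6 to 58.9 CPM (adjusted p = 0.0101), and the bile acid importer Slc10a1, from a range of 212 to 292 to a range of 111 to 253 CPM (adjusted p = 0.0615, with mouse 453 overlapping and a call kept only without mouse 353 or without mouse 453).

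Genes that differ between the sexes did not move in a single direction (1.38% of all genes tested were called in the step). Of 23 tested genes known to be higher in female liver, 3 were called lower in the step (among them Cyp3a44 and Cyp3a41a) and none higher, with a median of 0.24 in the step and -1.18 at 0.5 mg/kg against control. Of 19 tested genes higher in male liver 12 were below 0 and 4 above 0 in the step (median log2 -0.41). Of these genes 2 were called lower (Serpina1e and Mup3) and 1 higher. The latter was Cyp4a12a, a male-predominant ω-hydroxylase, which had at most 0.0850 CPM in controls, 6.21, 9.63, 83.5 and 17.2 CPM at 0.5 mg/kg and 64.8, 189.9, 153, 119 and 221 CPM at 5 mg/kg (log2 2.36 ± 0.38, adjusted p = 2.41e-04). Mouse 353, the highest at the lower dose, lay above mouse 451, and without mouse 353 the log2 change was 3.77 and still called. Over the Cyp4 list as a whole, 3 of 12 genes were called higher and 1, Cyp4f14, lower (median log2 1.20). The Cyp4a genes are close paralogs, so reads may be shared among them.

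Which genes had already responded at 0.5 mg/kg was read from the contrast of 0.5 mg/kg with control, given beside the step. The same 4 mice enter both contrasts, with opposite sign, so they are not independent. Of 25 genes called at 0.5 mg/kg, 14 were called again in the step, all of them higher at both, and 11 were not. Of the 171 genes of the step 157 were not called at 0.5 mg/kg, and 101 of these 157 had a change of the same direction at both. A further 342 genes were called at 5 mg/kg against control but in neither contrast. In 324 of the 342 both changes had the same direction, which a choice by the whole change favours. A missing call does not show that a gene was unchanged, so the dose at which these genes responded is undecided. Retsat, retinol saturase, had 89.8, 131, 173, 121 and 145 CPM in controls, 319, 444, 725 and 530.5 CPM at 0.5 mg/kg and 1264, 1331, 1643, 1429.6 and 1771 CPM at 5 mg/kg, that is log2 1.93 ± 0.17 and then 1.56 ± 0.17 (adjusted p = 5.61e-08 in the step). Acsl1 rose by log2 0.66 ± 0.12 and 0.68 ± 0.12, Decr1, the mitochondrial dienoyl-CoA reductase, by 0.82 ± 0.15 and 0.82 ± 0.15, and Ephx2, soluble epoxide hydrolase, by 0.83 ± 0.11 and 0.88 ± 0.11. In these 4 genes 48.6 to 55.4% of the whole log2 change between control and 5 mg/kg was present at 0.5 mg/kg. In Ehhadh (1.72 ± 0.17 and 3.23 ± 0.17), Hsd17b11 (0.90 ± 0.17 and 1.88 ± 0.17) and Acot1 (1.56 ± 0.26 and 2.68 ± 0.26) the share was 32.4 to 36.8%. Over 245 genes called higher at 5 mg/kg against control, with a finite error, the median share was 38.4%, and over 228 called lower it was 30.5%.

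**Figure D5:**
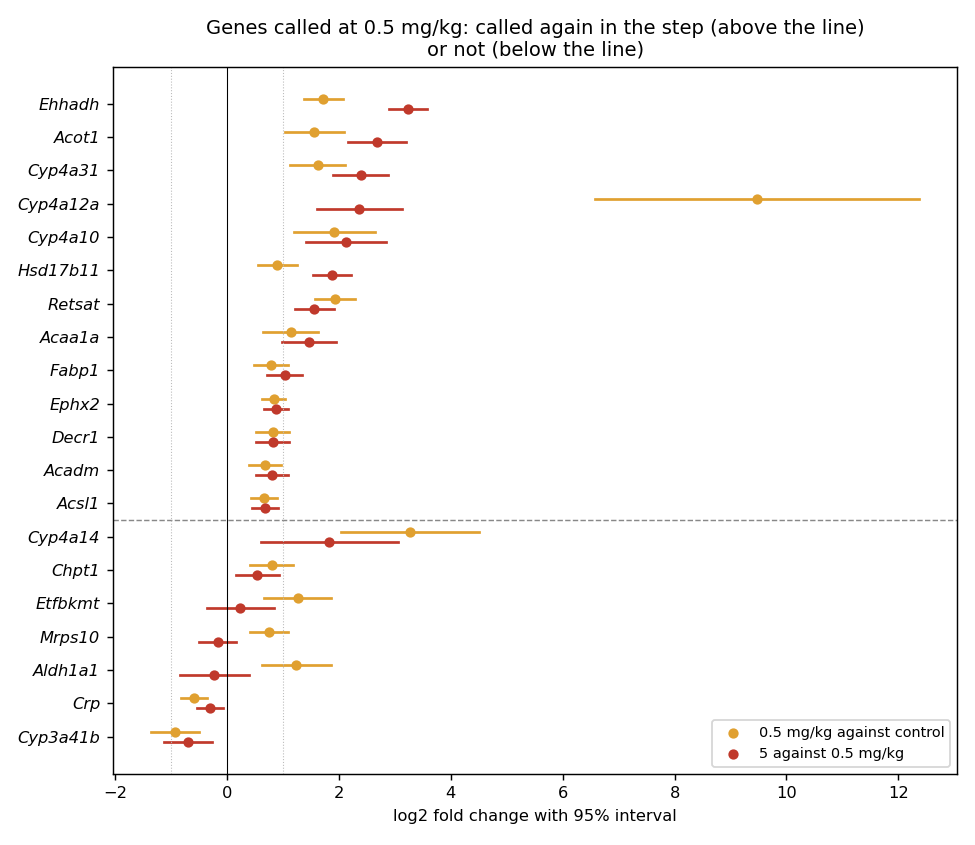
Log2 change with 95% interval (x axis) at 0.5 mg/kg against control (orange) and from 0.5 to 5 mg/kg (red) for named genes called at 0.5 mg/kg, which share the 4 mice at 0.5 mg/kg. Above the dashed line lie genes called again in the step, such as Ehhadh, whose second change is the larger, and below it genes not called again, 5 of which (Chpt1, Etfbkmt, Mrps10, Aldh1a1 and Crp) have a red interval within 1 log2 unit of 0.

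Among the 11 genes called at 0.5 mg/kg but not in the step, 5 had a 95% interval of the step within 1 log2 unit of 0. Mrps10, a mitochondrial ribosomal protein, had 52.5, 72.4, 68.5, 71.8 and 98.4 CPM in controls, 123, 126, 132 and 107 CPM at 0.5 mg/kg and 96.1, 106, 98.9, 132 and 109.8 CPM at 5 mg/kg (interval of the step -0.51 to 0.17). Etfbkmt, a methyltransferase acting on an electron transfer flavoprotein, had 71.3, 62.04, 97.3, 74 and 94.2 CPM, 118, 104, 238 and 307 CPM and 109.5, 239.5, 238, 171 and 373 CPM (-0.35 to 0.83). Both had mice of the 2 doses interleaved. Crp, C-reactive protein, was lower at 0.5 mg/kg, with 1352, 1700.3, 1887, 1409 and 1482 CPM in controls and 968, 1042, 997 and 1158 CPM, and stood at 759, 806, 956, 909 and 804 CPM at 5 mg/kg (-0.53 to -0.07). Chpt1, choline phosphotransferase, had an interval of 0.16 to 0.93 and Aldh1a1, retinaldehyde dehydrogenase, of -0.85 to 0.40. For Crp and Chpt1 the interval leaves out 0 although neither was called, so a further change in the same direction is within the data. In Crp (log2 -0.64 to -0.51), Mrps10 and Chpt1 the change at 0.5 mg/kg against control was itself under 1 log2 unit in every leave-one-out fit. A step as large as that change would lie within the limit, so the limit alone shows no plateau. Several of the 5 calls at 0.5 mg/kg rested on few mice, since Mrps10 was not called without mouse 151, 352 or 353 (log2 0.65 to 0.88 against control), Etfbkmt without mouse 151, 152, 154, 353 or 354 (0.94 to 1.47) and Chpt1 without mouse 151, 152, 154, 352, 353 or 354 (0.63 to 0.95). With mouse 355 kept, none of these 3 was called at 0.5 mg/kg against control (adjusted p = 0.607, 0.44 and 0.761 in the same order), while Crp was (adjusted p = 0.0364).

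The other 6 genes of that class had wider intervals or levels at 0, so no plateau can be read from them either. Cyp4a14, an ω-hydroxylase, had 6.12, 18.7, 86.8, 2.70 and 25.5 CPM in controls, 263, 240.1, 397 and 179 CPM at 0.5 mg/kg and 674, 948, 991, 1100.3 and 1089.9 CPM at 5 mg/kg. All 5 mice at 5 mg/kg lay above all 4 at 0.5 mg/kg, and the step of log2 1.83 ± 0.61 missed the threshold (adjusted p = 0.25, interval 0.61 to 3.05). Cyp4a12b had no read in controls, 0, 2.46, 23.7 and 8.04 CPM at 0.5 mg/kg and 13.4, 27.2, 46.1, 5.27 and 31.9 CPM at 5 mg/kg (interval of the step 0.37 to 2.71). Sult1e1, estrogen sulfotransferase, was at 0, 515, 156, 79.7 and 7.91 CPM in the 5 controls and had no read in any of the 9 mice at either dose, so that no step could be measured. Mouse 355, left out of that group, had 1455 reads of Sult1e1. Nat8f5, an acetyltransferase family member, and Tdrp, a nuclear protein first described in testis, had no read in controls and 2.38, 2.32, 26.6 and 4.67 CPM and 2.84, 4.34, 5.43 and 5.27 CPM at 0.5 mg/kg, which is mostly 1 or 2 molecules. With mouse 355 kept, Cyp4a14, Sult1e1, Tdrp and Cyp3a41b were not called at 0.5 mg/kg against control (adjusted p = 0.414, 0.961, 0.154 and 0.414). Tdrp was not called at 0.5 mg/kg without mouse 152, 154 or 155. Cyp3a41b had 1182, 743, 917, 1174 and 959.9 CPM in controls, 646, 529, 427 and 495 CPM at 0.5 mg/kg and 539.9, 299, 275, 255 and 248 CPM at 5 mg/kg, where mouse 451 was the highest, as it was in Cyp3a41a (interval of the step -1.12 to -0.27). The call of Cyp3a41b at 0.5 mg/kg was lost without mouse 151, 154, 352, 353 or 354 (log2 -1.04 to -0.84).

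The reference promoters of the genes of the step were searched for DR1, a direct repeat of the half-site AGGTCA with 1 base of any kind between the copies, to which PPAR-RXR dimers bind, on both strands with at most 2 mismatches, over the 250 bases before and 50 bases after each RefSeq start (GRCm38.p6). Promoters were found for 62 of the 78 genes called higher, of which 7 (11.3%) held a match, for 74 of the 93 called lower, of which 10 (13.5%) did, and for 9573 of 12412 genes tested, of which 379 (4.0%) did. With genes of a single start only, the shares were 13.2, 11.9 and 3.4%. A match says only that the letters are there, and genes of either direction held it. Full windows are given for a pair of genes that rose and a pair that fell, with the matched letters in capitals and the rest in lower case, 5′ to 3′ on the strand of the gene. Fabp1 (chr6:71199629-71199928, plus strand) has 1 mismatch and the match on the opposite strand, 67 to 55 bases before the start, Plin2 (chr4:86670010-86670309, minus strand) has 2 mismatches on the opposite strand, Cyp2c29 (chr19:39286835-39287134, plus strand) has 2 on the same strand, and Bhmt (chr13:93637709-93638008, minus strand) has 2 on the same strand.
Fabp1: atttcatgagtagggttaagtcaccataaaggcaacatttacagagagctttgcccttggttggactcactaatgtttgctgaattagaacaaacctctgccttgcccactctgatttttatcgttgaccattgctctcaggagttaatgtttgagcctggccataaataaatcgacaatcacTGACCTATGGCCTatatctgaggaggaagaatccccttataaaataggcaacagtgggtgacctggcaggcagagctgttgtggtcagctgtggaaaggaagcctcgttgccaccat
Plin2: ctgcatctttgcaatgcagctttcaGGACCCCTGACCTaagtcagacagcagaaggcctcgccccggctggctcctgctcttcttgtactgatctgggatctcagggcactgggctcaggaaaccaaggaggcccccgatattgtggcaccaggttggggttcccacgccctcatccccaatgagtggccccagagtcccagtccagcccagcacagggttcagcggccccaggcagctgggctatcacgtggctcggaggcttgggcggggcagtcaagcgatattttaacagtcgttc
Cyp2c29: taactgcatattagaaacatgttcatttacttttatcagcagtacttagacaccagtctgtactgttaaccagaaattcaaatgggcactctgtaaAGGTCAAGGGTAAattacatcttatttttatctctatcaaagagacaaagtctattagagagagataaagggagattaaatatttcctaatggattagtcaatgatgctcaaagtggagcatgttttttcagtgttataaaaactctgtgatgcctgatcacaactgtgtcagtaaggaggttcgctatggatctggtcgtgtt
Bhmt: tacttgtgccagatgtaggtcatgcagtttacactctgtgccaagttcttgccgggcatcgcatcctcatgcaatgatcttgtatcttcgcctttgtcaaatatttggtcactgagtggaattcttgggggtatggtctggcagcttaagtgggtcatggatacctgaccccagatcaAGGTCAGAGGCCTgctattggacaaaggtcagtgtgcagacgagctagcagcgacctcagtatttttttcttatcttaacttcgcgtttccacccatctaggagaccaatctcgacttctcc

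The same dose step in males was used to ask where the females differed. In males 374 genes were called between 0.5 and 5 mg/kg (3.01%, with 1.17% higher and 1.84% lower), against 171 in females, and the difference between the female and the male step was itself called for 14 genes (0.113%), 0.0564% with the larger value in females and 0.0564% in males, of which 8 are described. The males at 5 mg/kg held more molecules by the estimate from reads, 489778 to 649658 against 360202 to 527209 at 0.5 mg/kg, and the median change of all genes was 0.08 in the male step. The part of this in the sex difference was not tested. Retsat rose in females as given above, from a range of 319 to 725 to a range of 1264 to 1771 CPM, whereas males had 1230.1, 941, 1107, 1248 and 1057 CPM at 0.5 mg/kg and 1417, 1181, 1230.1, 1376 and 1077 CPM at 5 mg/kg. The female step exceeded the male step by log2 1.39 ± 0.24 (adjusted p = 0.00484), and the ranges of the sexes overlapped at 5 mg/kg. With mouse 355 kept, 5 of the 8 differences were not called, those of Retsat and Nat8f6 (adjusted p = 0.132 for each), Cyp2c29 (0.276), Cyp2e1 (0.225) and Pter (0.491), while those of Fabp4, Cyp2b13 and Gstp1 were. Fabp4, the adipocyte-type fatty acid binding protein, had 40.6, 46.8, 48.1 and 47.03 CPM and 75.2, 59.1, 59.5, 86.5 and 71.3 CPM in females (log2 0.62 ± 0.30, not called) and 30, 45.1, 40.4, 60.3 and 65.3 CPM and 709, 1350.5, 880.0, 201 and 505 CPM in males (log2 3.92 ± 0.28). The difference of the steps was -3.29 ± 0.41 (adjusted p = 6.45e-06). The 7 adipocyte markers summed to at most 3.48 CPM in the females of these 2 doses, to at most 2.84 CPM in males at 0.5 mg/kg and to 3.48 to 14.3 CPM in males at 5 mg/kg. Of these Cidea, a lipid droplet protein, had no read in males at 0.5 mg/kg and 6.01, 12.9, 7.17, 3.48 and 5.14 CPM in males at 5 mg/kg (not called, adjusted p = 0.19), and Adipoq, Retn, Plin1 and Cfd were at 0 in males at 5 mg/kg on their most counted probe. The part of fat cells in the Fabp4 difference was not tested.

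The P450 enzyme Cyp2c29 fell more in males than in females. It had 1641, 1783, 1428, 1642 and 1228 CPM and 239, 292, 187, 491 and 361 CPM in males, a log2 change of -2.30 ± 0.17 against -0.99 ± 0.18 in females (difference 1.31 ± 0.24, adjusted p = 0.00727). Cyp2e1, a P450 which oxidizes ethanol and small solvents, had 5760.3, 6853, 4849.5 and 6089 CPM and 5908, 3633, 8286, 6383 and 7489.8 CPM in females, with an interval of -0.27 to 0.49, and fell by 1.16 on the log2 scale in males (difference 1.27 ± 0.26, adjusted p = 0.0249). Gstp1, a glutathione transferase higher in male liver, had 408 to 761 and 519.9 to 864 CPM in females and 2922 to 4878 and 1569 to 2009 CPM in males (difference 1.63 ± 0.30, adjusted p = 0.00727). Pter, a phosphotriesterase-related protein, had 200.2, 215, 271 and 178 CPM and 181, 81.2, 126, 147 and 136 CPM in females and 125, 154, 128, 143 and 126 CPM and 171, 237, 195, 263 and 201 CPM in males (difference -1.35 ± 0.28, adjusted p = 0.0249). The step of Pter was called in males (adjusted p = 0.0562) and not in females (adjusted p = 0.10). Cyp2b13, a female-predominant P450, had no read in males at 0.5 mg/kg, up to 10.2 CPM in males at 5 mg/kg, and 13.6, 19.7, 9.46 and 13.1 and 11.8, 24.1, 20.3, 22.2 and 35.3 CPM in females (adjusted p of the difference = 0.00484). Nat8f6, an acetyltransferase family member, had 18.7, 9.56, 11.3 and 6.48 CPM at 0.5 mg/kg in females and no read at 5 mg/kg, beside 9.93, 3.63, 0, 3.04 and 9.67 CPM and 3.31, 2.14, 0, 1.70 and 1.48 CPM in males (adjusted p of the difference = 0.0194). With levels of a few molecules, no fold change is given for Cyp2b13 and Nat8f6.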

How the data were processed

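RNA expression was measured by TempO-Seq with 30146 probes for 21448 gene symbols. The authors aligned the reads to the probe sequences and deposited raw read counts per probe, and the submitters' notes name bcl2fastq 2.17.1.14, Bowtie and mm10. The labels put 5 mice in each of 8 groups of sex and dose, and mouse 355 was left out for depth (below 2 SD under the mean of 40 libraries). Within the groups of the step 16 pairs of libraries were compared and 0 were identical (lowest chi-square over its degrees of freedom, 50.5).

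Counts were fitted with edgeR 4.0.16 (R 4.3.3), by its quasi-likelihood test with the legacy setting, TMM scaling and one mean per group over 39 libraries, on 17877 probes passing filterByExpr. P-values were adjusted by the Benjamini-Hochberg method over all probes and called under 10%, and genes are given by their most counted probe. CPM were computed with TMM library sizes. The reads per molecule of a library were estimated as the highest point, from 10 to 150 reads, of its smoothed distribution of counts per probe. Molecules are total reads divided by that value. SE and 95% intervals were computed from the fitted information and the moderated quasi-dispersion. The fit was tested on simulated data. DESeq2 1.42.0, other scaling, filters, samples, probe summing, counts in molecules and leave-one-out fits were alternatives, and edgeR without the legacy setting was added after seeing the data. Members, gene lists and the rule for named genes (the 12 largest rises and falls above 20 CPM without overlap, up to 4 genes per list, up to 10 called only at 0.5 mg/kg and up to 8 that differed by sex) were chosen with earlier results of these data known. Gene positions are from GENCODE M21 (GRCm38) and promoters from RefSeq. A few genes are not reported here. Read totals limit precision for counting error only, since PCR reads without molecular identifiers are not independent.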

Additional observations from a re-analysis of the deposited data

Results flagged for a closer look

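Among 206 sets of a named gene and a group, 16 had a mouse that lay far from the others of its group by Dixon's test. The nominal rate of the test, about 1 in 20, is for normally distributed values. The CPM of genes chosen by their calls need not be such values, so the 16 are not compared with that rate. In Fabp3 and Cox6b2 all other mice of the group were at 0, where any read is flagged. At 0.5 mg/kg mouse 353 was the highest in Fabp3 (0.576 CPM), Cyp4a12a (83.5 CPM) and Nat8f5 (26.6 CPM) and the lowest in Pxmp2 (581 CPM). Mouse 354 was the highest in Cox6b2 (2.25 CPM) and C9 (792 CPM) and the lowest in Adam11 (8.13 CPM) and Pcna (14.96 CPM). Mouse 352 was the highest in Gstt2 (195.0 CPM) and the lowest in Asl (619 CPM, against 634 in the next mouse). At 5 mg/kg mouse 451 was the highest in Acaa1a (3798 CPM), Cyp3a41a (1071 CPM) and Cyp3a41b (539.9 CPM), mouse 452 in Ucp2 (90.3 CPM) and Nat8f5 (14.98 CPM), and mouse 455 in Bdh1 (271.2 CPM).

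The dose step differed between the sexes in 8 named genes by the edgeR interaction test. The female step minus the male step, on the log2 scale, was 1.39 for Retsat, 1.31 for Cyp2c29, 1.63 for Gstp1 and 1.27 for Cyp2e1, and -3.29 for Fabp4 and -1.35 for Pter. For Cyp2b13 (-8.53) and Nat8f6 (-8.65) a group without reads enters, so the fitted value depends on the prior count and gives no size.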

How the results depend on the processing

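Of 74 named genes called in the step, 47 were called in every leave-one-out fit, and no named value changed direction under any alternative. Leaving out 1 mouse gave 121 to 172 genes in the step, 23 to 37 at 0.5 mg/kg against control, 418 to 493 at 5 mg/kg against control, 253 to 366 in the male step, 9 (without mouse 351) to 23 (without mouse 452) in the step by sex, 22 without male mouse 404, and 53 to 74 genes of the lists. Genes called only in the step were counted in the 4 fits without a mouse at 0.5 mg/kg, and were 105 to 153, against 157 in the main fit. Of the same 74 genes, 72 stayed called with DESeq2 (not Acot2 and Hspa5), 55 when only the groups compared were fitted and 43 with mouse 355 kept. DESeq2 called 424 genes in the step, 199 at 0.5 mg/kg, 612 in the male step, 170 by sex and 335 only in the step. Counts in molecules, with 4292 genes tested against 12412 in the main fit, gave 341, 77, 809, 40 and 307 in the same order, and 128 genes of the lists. edgeR without its legacy setting, chosen after seeing the data, gave 260, 49, 683 and, only in the step, 240. Keeping mouse 355 gave 8 genes at 0.5 mg/kg, 180 at 5 mg/kg against control, 113 in the male step, 7 by sex and 49 genes of the lists. No filter on low counts gave 80 at 0.5 mg/kg and 87 by sex, and fitting only the groups compared gave 15 at 0.5 mg/kg and 624 in the male step. In the female step the fit of only the groups compared called 117 of 9628 genes tested, 73 higher and 44 lower. Of these 100 were among the 171 of the main fit, and 62.4% of the 117 were higher, against 45.6% in the main fit. The cause of these shifts was not tested. No paired analysis was possible because the groups share no replicate numbers. Levels of a few CPM rest on an estimated 1 or 2 molecules, which limits every gene near 0.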
